A study of Mus musculus with 10 samples.

Results

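The balance between 3′UTR and CDS reads of the same transcript was compared between untreated and KCl-stimulated cortical cultures, using the RNAseq libraries. This comparison asks whether depolarization shortens or lengthens 3′UTRs or moves a gene from one 3′ end to another. A transcript was included when its CDS and its 3′UTR each held at least 50 RNAseq reads summed over the 5 libraries. This was met by 9934 of the 22534 listed transcripts, which came from 6058 of 13188 genes. The choice used read depth only and no difference between cultures. Of the transcripts that missed it, 347 had 45 to 49 reads in the smaller region, and 327 that met it had 50 to 54.

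The 3′ end of an mRNA is made by cleavage and polyadenylation, which take place a short distance downstream of a hexamer, most often AATAAA, that is bound by the cleavage and polyadenylation complex. Many genes hold more than 1 such site. Sites that follow the same stop codon give the same protein with a shorter or a longer 3′UTR, whereas sites in different last exons also change the C terminus of the protein. The 3′UTR carries sites for microRNAs and RNA-binding proteins that act on stability, localization and translation of the mRNA. Long 3′UTRs are typical of neurons, and activity is known to switch particular genes to an upstream 3′ end.

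The cultures were made from cortices of newborn (P0) FVB mouse pups of both sexes and grown for 7 days, neurons and glia together. Cultures 1, 2 and 3 were untreated. Cultures 4 and 5 received KCl to a final 55 mM for 3 h. Before harvest all cultures, untreated ones included, spent 7 min in 100 ug/ml cycloheximide, an inhibitor of translation elongation. The study's methods name 1 more KCl replicate that was set aside for its small library, so the KCl group is 2 cultures and p-values rest on the spread of 3 cultures and 2.

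RNAseq libraries held between 3056286 and 3629959 reads, and the median member had between 49 and 56 CDS reads and between 60 and 66 3′UTR reads per library. The ratio of these reads is not scaled to region length and is compared only within a transcript. Reads that fit several isoforms were counted on each of them: isoforms with the same 3′UTR had identical 3′UTR counts in 97.8% of 881 groups, so the 9934 members hold 9170 distinct sets of counts. Among fixed cell type markers, 8 of 8 astrocyte and 5 of 8 neuronal genes were members. Summed CDS reads of the astrocyte markers lay between 8920 and 10452 in untreated and between 7918 and 9766 in KCl cultures, and those of the neuronal markers between 294 and 455 and between 392 and 445. Both kinds of cell were thus present, with many more reads on astrocyte markers, of which more were members. In such bulk libraries fewer cells of a type and less RNA per cell cannot be told apart.

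Where both regions of a transcript passed the test, they nearly always moved the same way. After KCl, CDS reads rose for 930 (9.36%) and fell for 640 transcripts (6.44%) at an adjusted p under 0.05 (edgeR), 15.8% of those tested. 3′UTR reads rose for 1222 (12.3%) and fell for 1053 (10.6%), or 22.9%. With library totals in place of TMM scaling the splits were 740 and 841 for the CDS and 996 and 1396 for the 3′UTR, and rises outnumbered falls under TMM but not under library totals. Without KCl culture 4 the CDS had 721 calls and the 3′UTR 1314, and without KCl culture 5 they had 819 and 1472. Both regions rose in 608 and both fell in 360 transcripts. Only the CDS was called in 597, only the 3′UTR in 1302, and neither region in 7062. They were called in opposite directions in 5 transcripts of 4 genes, among them Pafah1b1, Helz and Resf1. Across members, which share libraries and in part reads, the log2 changes of both regions had a Pearson r of 0.718, and of 0.799 over the 4504 members with at least 200 reads in each region.

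**Figure D1:**
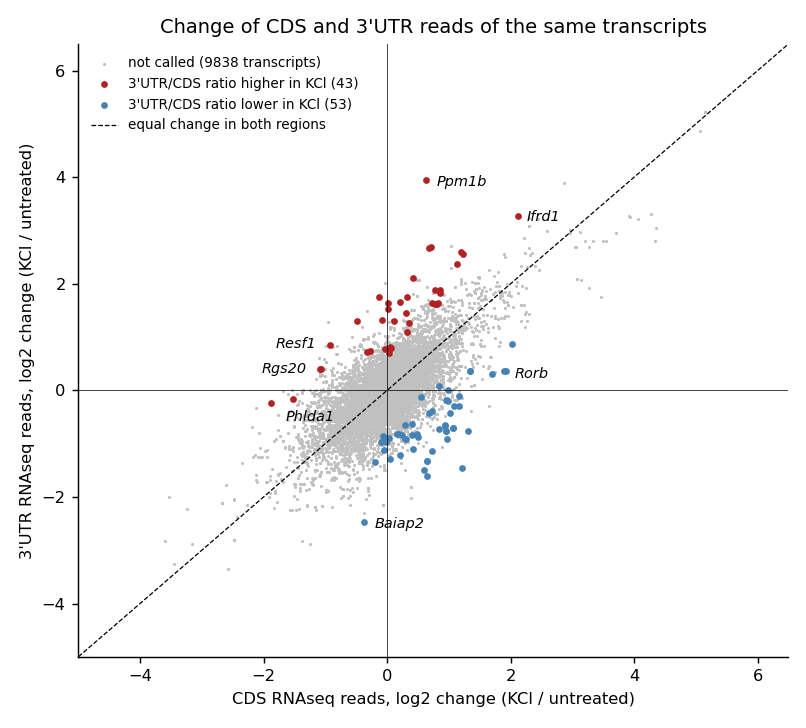
Log2 change of CDS reads (x axis) against log2 change of 3′UTR reads (y axis) between KCl and untreated cultures, 1 point per transcript. Most points lie along the dashed line of equal change, while the 43 transcripts with a higher ratio (red) lie above it and the 53 with a lower ratio (blue) lie below it.

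The ratio itself changed in 96 transcripts, 0.966% of the 9934 tested, with 43 higher (0.433%, 30 genes) and 53 lower (0.534%, 37 genes) at an adjusted p under 0.05. This is the edgeR fit of region and treatment in which each culture is a block. Before adjustment 991 transcripts, or 9.98%, had a p under 0.05. All 43 and all 53 had both KCl cultures beyond all 3 untreated cultures, which held for 26.4% of all members. With library totals shared by both regions, 89 were higher and 46 lower, so which direction is more frequent depends on the scaling. DESeq2 called 28 (11 higher, 17 lower), all among the 96. limma on log2 ratios called 0, with 886 transcripts at an unadjusted p under 0.05. Without untreated culture 3 the count was 150 (86 higher, 64 lower), and without KCl culture 4 it was 28 (12 higher, 16 lower). Leaving out untreated culture 1, untreated culture 2 or KCl culture 5 gave 52, 48 and 36. Without the culture block 47 were called, and 20 of 6058 genes when reads were summed over the transcripts of a gene.

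As a whole, the members shifted little. The median ratio of 3′UTR to CDS reads was 1.118, 1.121 and 1.173 in untreated cultures 1, 2 and 3, and 1.214 and 1.174 in KCl cultures 4 and 5. Both KCl values thus lay above all untreated values, though those of KCl culture 5 and untreated culture 3 were nearly the same. The difference was 0.07 on the log2 scale, with a two-sided exact permutation p of 0.2 over 10 splits, of which the smallest possible p is 0.1. Total 3′UTR over total CDS reads differed by 0.104, and the median ratio of members with at least 200 reads per region by 0.105. The exact permutation p was 0.2 for each. The middle 95% of members had log2 changes of the ratio between -1.02 and 0.93, and between -0.73 and 0.72 with at least 200 reads per region.

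Among the genes with the largest rises, the call for Ntrk2, Kdm6b and Resf1 held when any 1 culture was left out and with DESeq2. Ntrk2 encodes TrkB, the receptor for BDNF, and its member is the form with the full-length receptor coding sequence (2466 nt) and a 3′UTR of 5617 nt on chromosome 13 from 59128354 to 59133970 of GRCm38. Untreated cultures had 62, 52 and 53 3′UTR reads and KCl cultures 140 and 150. CDS reads were 2176, 1827 and 1730 without KCl and 1615 and 1917 with it. The 3′UTR groups did not overlap, and CDS reads were not called (log2 change -0.09, edgeR adjusted p = 0.722). The ratio was 0.0292 ± 0.00125 (SD, n = 3) against 0.0825 ± 0.00597 (SD, n = 2), a log2 change of 1.40 (standard error 0.19, edgeR adjusted p = 5.2e-06). Its footprints on the CDS had a log2 change of -0.06 (edgeR adjusted p = 0.593). The 3′UTR is longer than the CDS but held far fewer reads. Reads that fit several isoforms were counted on each, so the CDS reads and footprints need not be those of this form alone. How many were its own was not tested.

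Kdm6b encodes a demethylase of histone H3 lysine 27. Its 3′UTR had 106, 151 and 164 reads in untreated and 315 and 493 in KCl cultures, and its CDS had 247, 344 and 289 against 269 and 452. The ratio went from 0.479 ± 0.0772 (SD, n = 3) to 1.13 ± 0.0568 (SD, n = 2), a log2 change of 1.15 (standard error 0.19, edgeR adjusted p = 0.00014). Resf1, a factor in the silencing of retroelements, changed in both regions in opposite directions. Its 3′UTR reads were 30, 27 and 43 in untreated and 68 and 58 in KCl cultures, while its CDS reads were 249, 143 and 145 against 92 and 92. The ratio had a log2 change of 1.76 (standard error 0.32, edgeR adjusted p = 0.00054).

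In other rises the CDS moved as well. Ifrd1, a transcriptional coregulator, rose in both regions, with a log2 change of 2.11 for the CDS and 3.28 for the 3′UTR. Its 3′UTR reads were 23, 14 and 24 in untreated and 209 and 205 in KCl cultures. Rgs20, a regulator of G protein signalling, fell in the CDS only, with 207, 164 and 135 reads in untreated against 69 and 89 in KCl cultures and a log2 change of the ratio of 1.45 (standard error 0.28, edgeR adjusted p = 0.00153). Phlda1, whose 3′UTR shares bases with the annotated gene Gm28592, had the same pattern, with CDS reads of 120, 184 and 134 against 34 and 66 and a log2 change of the ratio of 1.36 (edgeR adjusted p = 0.00145). Atg2b, an autophagy protein that carries lipids between membranes, rose in the 3′UTR only, from 47, 75 and 94 reads to 248 and 264. Exons of other annotated genes (Kdm6bos, Gm7008 and Gskip) overlap the CDS of Kdm6b, Ifrd1 and Atg2b. The study made its RNAseq libraries from double-stranded cDNA and names no step that keeps the strand. Reads of these neighbours, on either strand, could therefore be among those counted.

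Other large rises were those of Mapkapk5, Prelid3b, Nrf1 and Slc15a2, with log2 changes of the ratio of 1.97, 1.62, 1.53 and 1.43 (edgeR adjusted p = 0.0214, 0.0437, 0.00957 and 0.0354). Their calls were lost with DESeq2 and when KCl culture 4 was left out, and for Prelid3b, Nrf1 and Slc15a2 also without KCl culture 5. Each also lost it without at least 1 untreated culture, namely culture 1 for Mapkapk5 and Prelid3b, culture 2 for Nrf1 and Slc15a2, and culture 3 for Mapkapk5, Prelid3b and Slc15a2. Prelid3b and Slc15a2 were not called without the culture block (edgeR adjusted p = 0.0722 and 0.061). With reads summed per gene Slc15a2 had a log2 change of 0.67 (edgeR adjusted p = 0.489). Without 1 culture the changes of these genes stayed positive, down to 1.15 for Prelid3b, which the way they were chosen largely fixed. The 3′UTR of Mapkapk5, a kinase downstream of p38, shares bases with Adam1a, so its 3 to 5 untreated and 28 and 22 KCl reads could belong to either gene. The calls of Ifrd1, Atg2b, Rgs20 and Phlda1 were lost without 1 or more cultures too, among them KCl culture 4 for Atg2b and Phlda1 and KCl culture 5 for Ifrd1 and Rgs20, while DESeq2 kept them and the changes without 1 culture lay between 0.94 and 1.90. Ifrd1 was also not called without untreated culture 2, nor Atg2b without untreated culture 1.

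**Figure D2:**
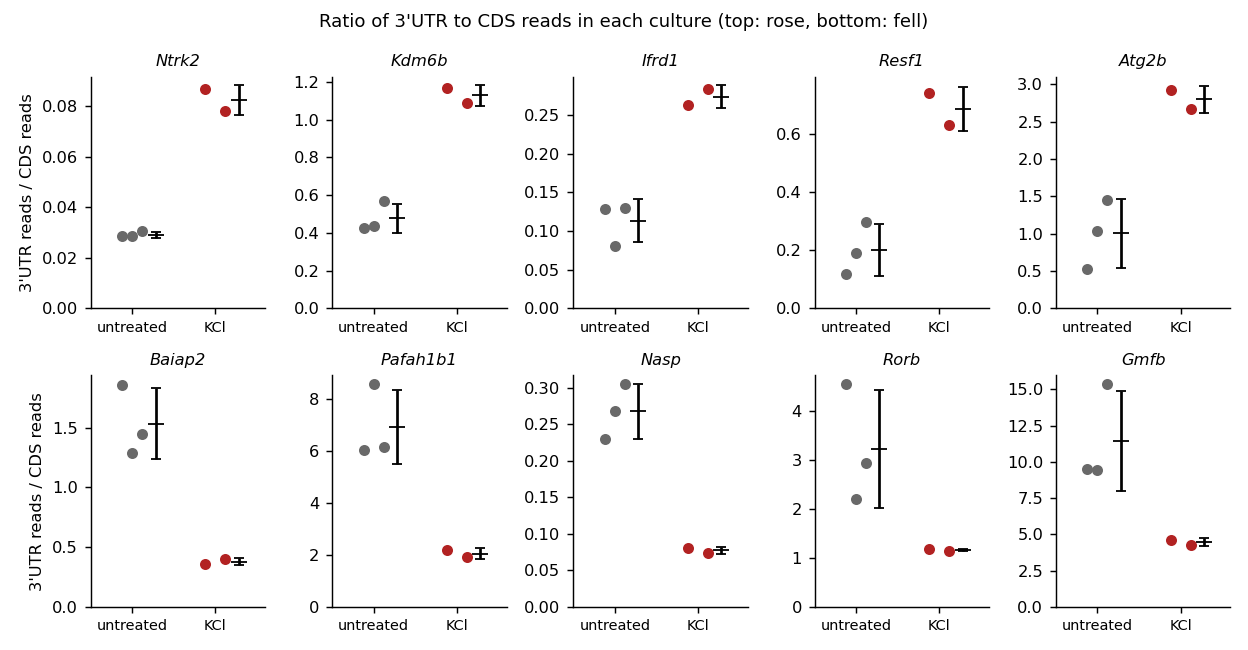
Ratio of 3′UTR to CDS RNAseq reads (y axis, not scaled to length) in each culture for 5 genes whose ratio rose (top) and 5 whose ratio fell (bottom). Points are cultures and bars to their right show the mean and SD of 3 untreated and 2 KCl cultures. In each panel the KCl points lie beyond all untreated points, as for Ntrk2 at 0.0867 and 0.0782 against 0.0285 to 0.0306.

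Among the largest falls, the calls for Baiap2, Nasp, Pafah1b1, Rorb, Bcl11a and Gmfb held when any 1 culture was left out and with DESeq2. With reads summed over the transcripts of a gene, Bcl11a went from -1.41 to -0.28 on the log2 scale (edgeR adjusted p = 0.759). Baiap2 encodes IRSp53, a scaffold that links membrane receptors to actin in dendritic spines. Its member ends 4161 nt upstream of the last annotated end of the gene, in an intron of another isoform, with the 3′UTR on chromosome 11 from 120000591 to 120002621 of GRCm38. That 3′UTR had 143, 106 and 97 reads in untreated and 20 and 23 in KCl cultures, whereas the CDS had 77, 82 and 67 against 56 and 58. The ratio fell from 1.53 ± 0.292 (SD, n = 3) to 0.377 ± 0.0279 (SD, n = 2), a log2 change of -2.10 (standard error 0.36, edgeR adjusted p = 0.00024).

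Pafah1b1, or Lis1, binds dynein and is needed for neuronal migration. Its CDS reads rose from 48, 21 and 37 to 72 and 73, while reads on its 3′UTR of 3720 nt fell from 289, 180 and 228 to 158 and 139. The log2 change of the ratio was -1.79 (standard error 0.28, edgeR adjusted p = 6e-05). Rorb, a nuclear receptor that marks a layer of cortical neurons, rose in the CDS, with 78, 100 and 73 reads in untreated and 287 and 325 in KCl cultures. Its 3′UTR of 7275 nt had 355, 219 and 214 reads against 337 and 369, so the groups overlapped there. The log2 change of its ratio was -1.51 (standard error 0.22, edgeR adjusted p = 1.9e-05), and its CDS footprints rose by 1.19 on the log2 scale (edgeR adjusted p = 2.3e-10).

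Nasp, a histone chaperone, had 122, 123 and 128 CDS reads in untreated and 247 and 231 in KCl cultures, with 28, 33 and 39 3′UTR reads against 20 and 17. Its ratio had a log2 change of -1.87 (edgeR adjusted p = 0.00054). Gmfb, the glia maturation factor beta, had 48, 35 and 26 CDS reads against 74 and 77, and 456, 330 and 400 3′UTR reads against 343 and 328, a log2 change of the ratio of -1.39 (edgeR adjusted p = 0.00068). In Rorb, Nasp and Gmfb the CDS rose without a call for the 3′UTR. Prkar1a, the regulatory subunit of protein kinase A, did so at greater depth, with 452, 542 and 492 CDS reads against 1216 and 1263 and a log2 change of the ratio of -0.98 (edgeR adjusted p = 6e-05). It lies outside the 12 largest falls and is named here after its values were seen.

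The other 6 of the 12 largest falls were Fgd6, Ubxn10, Trp53bp1, Cdk7, Grin2b and Ubxn7, with log2 changes of the ratio of -2.12, -1.98, -1.73, -1.57, -1.50 and -1.40 (edgeR adjusted p = 0.0397, 0.0245, 0.00185, 0.019, 0.0388 and 0.00493). Grin2b, a subunit of the NMDA receptor with a 3′UTR of 18865 nt, had ratios of 4.17, 6.80 and 7.64 in untreated and 1.95 and 2.23 in KCl cultures, and its call was kept only without untreated culture 1. Fgd6, Ubxn10 and Cdk7 lost the call without untreated culture 1 and without either KCl culture, and Cdk7 also without untreated culture 2. Ubxn7 lost it without untreated culture 1, untreated culture 2 or KCl culture 5, and Trp53bp1 without KCl culture 4. With DESeq2 the calls of Ubxn10, Cdk7, Grin2b and Ubxn7 were lost (adjusted p = 0.149, 0.174, 0.241 and 0.0643), and Fgd6 had no adjusted p. Without the culture block Fgd6, Ubxn10 and Grin2b were not called (edgeR adjusted p = 0.0771, 0.057 and 0.209). Over all single cultures left out their changes lay between -2.64 and -1.22. Exons of Tubgcp4 overlap the Trp53bp1 transcript, and exons of at least 1 other annotated gene overlap the CDS or the 3′UTR of Grin2b. Part of the reads of Trp53bp1 and Grin2b could therefore be those of a neighbour.

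Rises and falls of the ratio differed in which region carried the change. Of the 43 transcripts with a higher ratio, 39 rose in the 3′UTR, 14 of which also rose in the CDS, and 4 fell in the CDS alone. Of the 53 with a lower ratio, 29 fell in the 3′UTR and 26 rose in the CDS, with 3 in both groups. This is a breakdown of the chosen transcripts and not a separate test. Of the 37 called genes with more than 1 member, 23 also had a member that was not called.

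Transcripts with a lower ratio had longer 3′UTRs. Their median annotated length was 2264 nt, against 906 nt for those with a higher ratio and 1216.5 nt for all members. By quartiles of 3′UTR length, from shortest to longest, 0.163%, 0.327%, 0.571% and 1.06% of members had a lower ratio, and 0.407%, 0.532%, 0.449% and 0.327% a higher one. The median log2 change stayed between -0.013 and 0.016 in all quartiles, and Spearman's rho of the change with length was 0.001 across members. Median 3′UTR reads rose with length from 186 to 484, and the part of depth in these counts was not tested. Of the transcripts with a lower ratio 67.3% held more than 1 AATAAA in the 3′UTR, against 33.3% of those with a higher ratio and 38.6% of all members. At least 5 copies of ATTTA, the core of AU-rich elements, stood in 51.9%, 9.52% and 22.0%. Motifs were searched on the transcript strand, and longer 3′UTRs hold more of any motif. The 3′UTR shared bases with an exon of another gene in 23.3% of the transcripts with a higher ratio, 7.55% of those with a lower one and 10.9% of all members.

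**Figure D3:**
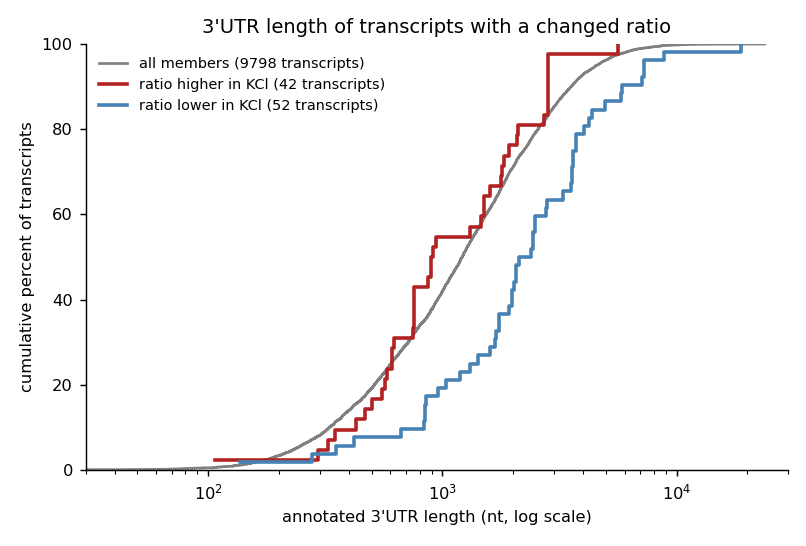
Cumulative percent of transcripts (y axis) by annotated 3′UTR length in nt (x axis, log scale) for all members (grey), transcripts with a higher ratio (red) and transcripts with a lower ratio (blue). The blue curve lies to the right of the others for most of its course, with a median of 2264 nt.

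Since a changed ratio does not say which end of a gene was used, reads at 2 annotated 3′ ends of the same gene were compared with each other. This comparison was added after the ratios were seen. Ends at least 100 nt apart with at least 50 reads each gave 1114 pairs in 662 genes. These reads were also summed over both groups, so an end with few untreated reads could pass through its KCl reads, as in Ppm1b. In 964 pairs the 3′UTRs were nested and began at the same place, and reads of the part found only in the longer 3′UTR were set against those of the shorter. The shorter 3′UTR lies within the longer, so reads on it can come from either form and do not count the short form alone. In 150 pairs the 3′UTRs did not overlap, here called different last exons. A change toward the upstream end means fewer downstream reads per upstream read. Of all pairs, 43 (3.86%) in 28 genes changed at an adjusted p under 0.05 (edgeR), with the downstream share higher in 18 (1.62%) and lower in 25 (2.24%). Without untreated culture 3 or without KCl culture 5 the count was 26. Pairs of a gene share reads.

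The hexamers near the ends of 7 of these genes are shown because the results below turn on those ends. Each line gives up to 30 nt of RNA sense strand, written as DNA from the GENCODE transcripts of GRCm38. Capitals mark the last AATAAA of the transcript's last 50 nt, or the last ATTAAA where AATAAA was absent. Any other hexamer stands in lower case, as at the Bcl11a upstream end.
Cpsf6 upstream end, chr10:117349042-117349071, minus strand: atgtagtgttgtAATAAActgtttatgggg
Cpsf6 downstream end, chr10:117344673-117344702, minus strand: tcttgtattgaaAATAAAaacaaagttttg
Arl4a upstream end, chr12:40035824-40035853, minus strand: tgaagttagtgaAATAAAactttgaagagt
Arl4a downstream end, chr12:40033294-40033323, minus strand: atgtttcttcaaAATAAAttaatgcaactt
Skil upstream end, chr3:31119238-31119267, plus strand: agacttcagaaaATTAAAatgatttctgaa
Skil downstream end, chr3:31122541-31122570, plus strand: gatgatattcccAATAAAaacttttaatgc
Rab1a upstream end, chr11:20225419-20225448, plus strand: gaagatatgtttAATAAAtattgtacttat
Rab1a downstream end, chr11:20226816-20226845, plus strand: tgagaatttcacAATAAAatcatagtttac
Bcl11a upstream end, chr11:24168403-24168429, plus strand: ttattgaaaaaaAATAAAaaaattaaa
Bcl11a downstream end, chr11:24173164-24173193, plus strand: taacattgacatAATAAAtgttggagcttt
Dido1 downstream end, chr2:180657965-180657994, minus strand: tacttgaagtagAATAAAtatctacagagt
Ppm1b upstream end, chr17:85017150-85017179, plus strand: gtgattttcaagAATAAAgacgcaacattg
Ppm1b downstream end, chr17:85023956-85023985, plus strand: ccatgttcacgcAATAAAtgcctttggctc
The last 50 nt of the Dido1 transcript with the upstream end held neither hexamer. Among all 9833 members with a sequence, 63.3% held AATAAA in the last 50 nt and a further 14.2% ATTAAA.

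Of the nested pairs 24 (2.49%) were called, most of them toward the upstream end. The downstream share fell in 21 pairs of 13 genes (2.18% of 964) and rose in 3 pairs of 3 genes (0.311%). The 13 genes were Tial1, Klf3, Cpsf6, Skil, Arl4a, Sestd1, Ssbp2, Anp32e, Pdcd6ip, Asap1, Metap2, Rab1a and Ywhaz, and the 3 were Slc25a3, Fam107b and Anapc11. Of the 18 distinct upstream ends in the pairs whose downstream share fell, 10 held AATAAA and 5 ATTAAA in the last 50 nt. Of the 728 upstream ends of all nested pairs, 25.4% held the first and 9.34% the second. The median log2 change of all nested pairs was -0.061. With DESeq2 9 fell and 1 rose, with 1 pair per gene 13 fell and 3 rose, and with any 1 culture left out between 9 and 19 fell and between 0 and 4 rose. The fewest falls, 9, came without untreated culture 3, and 13 were left without untreated culture 2. Of the 16 genes, Arl4a and Rab1a kept the call without each culture in turn.

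Arl4a, a small GTPase of the ARF family, had 70, 61 and 94 reads on its short 3′UTR of 322 nt in untreated and 295 and 301 in KCl cultures. The 2531 nt found only in its long 3′UTR had 50, 39 and 36 reads against 43 and 39. The downstream share fell by 2.04 on the log2 scale (standard error 0.31, edgeR adjusted p = 0.00035), with a call when any 1 culture was left out. Rab1a, a GTPase of transport from the endoplasmic reticulum to the Golgi, had 203, 186 and 170 upstream reads against 612 and 607, and 169, 166 and 172 downstream reads against 248 and 245. Both parts were higher in KCl cultures, the upstream part by more, and the log2 change was -1.19 (standard error 0.21, edgeR adjusted p = 0.00077). In untreated cultures upstream and downstream parts of Rab1a had about the same number of reads, without scaling to their lengths of 619 and 1386 nt.

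Skil encodes SnoN, an inhibitor of SMAD signalling. Its short 3′UTR had 8, 7 and 6 reads in untreated and 84 and 55 in KCl cultures, and the downstream part 125, 81 and 117 against 249 and 258, a log2 change of -2.07 (standard error 0.39, edgeR adjusted p = 0.00164). This call was lost without untreated culture 3, where the change stayed within the range of -2.39 to -1.67 found over the 5 cultures left out. Ywhaz, a 14-3-3 protein, had the most reads of these genes, with 1207, 999 and 1113 upstream against 2726 and 2331, and 2167, 1828 and 1590 downstream against 2532 and 2221. Its log2 change was -0.85 (standard error 0.16, edgeR adjusted p = 0.00136), with a call lost without untreated culture 2 (range -0.92 to -0.78). Tial1, an RNA-binding protein of stress granules, changed by -2.27 (edgeR adjusted p = 0.00165) and lost the call without untreated culture 3 (range -2.73 to -1.96).

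Cpsf6 is itself a subunit of cleavage factor I, which takes part in the choice of polyadenylation sites, and its transcripts were called in both directions. CDS reads of its most abundant member rose from 80, 66 and 88 in untreated to 173 and 182 in KCl cultures. On the short 3′UTR of 429 nt there were 14, 15 and 10 reads against 104 and 60. The 4369 nt found only in the long 3′UTR had 89, 31 and 62 reads against 69 and 107. The groups overlapped at the downstream part and were far apart at the upstream part. The downstream share fell by 2.07 on the log2 scale (standard error 0.48, edgeR adjusted p = 0.0118), and the call was lost without untreated culture 1, untreated culture 3 or KCl culture 4 (range -2.78 to -1.30) and with DESeq2 (adjusted p = 0.0637). A further Cpsf6 transcript, which ends 9132 nt upstream of the last end in an intron of other isoforms, had 21, 14 and 9 3′UTR reads against 7 and 4 and a log2 change of its ratio of -2.68 (standard error 0.52, edgeR adjusted p = 0.00153). The ratio of the transcript with the longest 3′UTR had a log2 change of -0.04 (edgeR adjusted p = 0.98), so that the gene was missed where only its most abundant transcript was used.

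**Figure D4:**
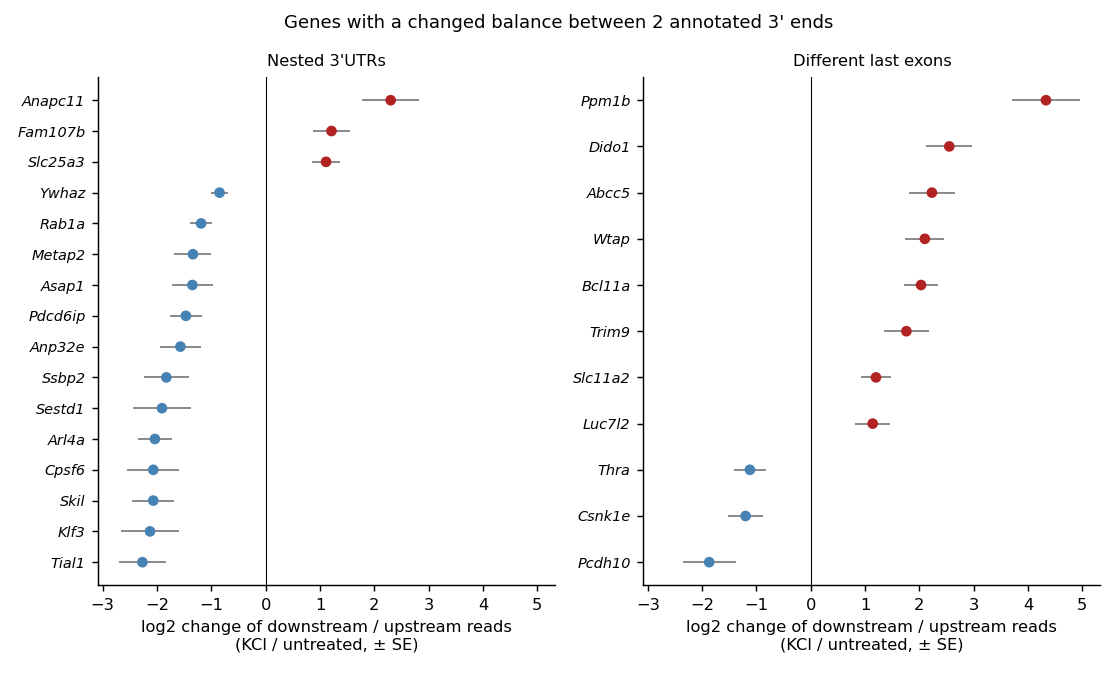
Log2 change of downstream over upstream reads between KCl and untreated cultures (x axis) with its standard error for the genes named here, 1 pair per gene, the one with the greatest change. Left, nested 3′UTRs: 13 genes lie below 0 (blue) and 3 above (red). Right, different last exons: 8 lie above 0 and 3 below.

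Of the pairs with different last exons 19 (12.7%) were called, most of them toward the downstream end. The downstream share rose in 15 pairs of 9 genes (10% of 150) and fell in 4 pairs of 3 genes (2.67%). Among those that rose were Luc7l2, Slc11a2, Trim9, Bcl11a, Wtap, Abcc5, Dido1 and Ppm1b, and those that fell Pcdh10, Csnk1e and Thra. The median log2 change of all 150 pairs was 0.146. DESeq2 called 13, all of them rises, with 1 pair per gene 8 rose and 2 fell, and with any 1 culture left out between 11 and 18 rose and between 0 and 5 fell. The calls of Abcc5, Bcl11a, Dido1, Ppm1b and Wtap held without each culture in turn. No test of the difference between nested pairs and pairs of different last exons was made.

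Bcl11a is a zinc finger repressor of neuronal development. Its upstream end had 142, 142 and 168 reads in untreated and 61 and 76 in KCl cultures, and its downstream end 45, 28 and 36 against 74 and 63. Upstream reads were lower and downstream reads higher in both KCl cultures than in all untreated cultures. The log2 change was 2.03 (standard error 0.32, edgeR adjusted p = 0.00035), and the 3′UTRs of both ends share bases with the annotated gene 4930538E20Rik. Wtap, a subunit of the complex that writes N6-methyladenosine, had the same form, with 91, 73 and 125 upstream reads against 43 and 60 and 22, 19 and 24 downstream reads against 45 and 57. Its log2 change was 2.10 (standard error 0.36, edgeR adjusted p = 0.00076).

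Dido1, a chromatin-bound protein, had 40, 26 and 42 downstream reads in untreated and 143 and 137 in KCl cultures, with 28, 37 and 33 upstream reads against 17 and 26 and a log2 change of 2.55 (standard error 0.42, edgeR adjusted p = 0.00046). Ppm1b, a protein phosphatase, had 0, 0 and 7 downstream reads against 36 and 43, and 134, 140 and 111 upstream reads against 95 and 104. Its fitted log2 change of 4.33 (standard error 0.62, edgeR adjusted p = 0.00035) rests on untreated cultures at or near 0 and is 8.43 without untreated culture 3, where the other untreated cultures had 0 reads and the fitted value gives no size. DESeq2 gave an adjusted p of 0.0905. Abcc5, an exporter of cyclic nucleotides, had ends 69455 nt apart, with 65, 51 and 61 upstream reads against 25 and 31 and 34, 25 and 13 downstream reads against 45 and 62 (log2 change 2.23, edgeR adjusted p = 0.0019).

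**Figure D5:**
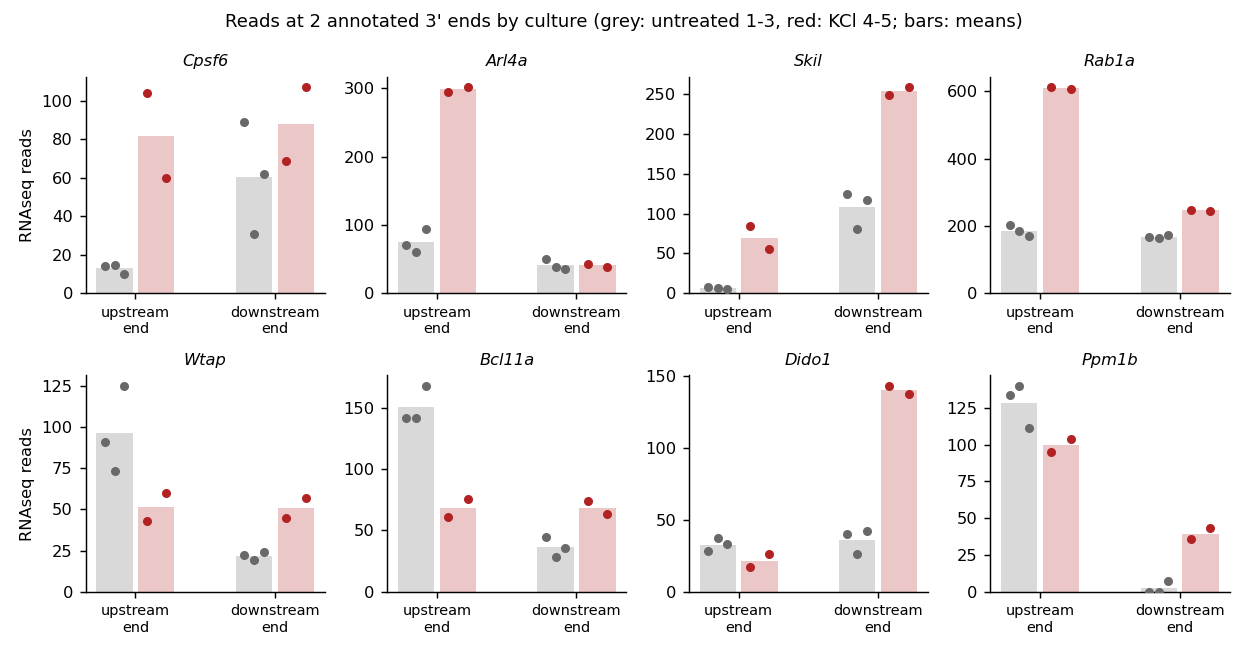
RNAseq reads (y axis, not scaled to length) at the upstream and the downstream end of 8 genes, with points for cultures and bars for means of 3 untreated (grey) and 2 KCl cultures (red). In Cpsf6, Arl4a, Skil and Rab1a (top) upstream reads gained more, relative to their untreated level, than downstream reads, as from 70, 61 and 94 to 295 and 301 in Arl4a, and in Wtap, Bcl11a, Dido1 and Ppm1b (bottom) the downstream end gained reads.

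Of the 3 genes with different last exons that moved toward the upstream end, Thra is known for receptor forms that differ in their last exon. Its upstream end had 19, 23 and 20 reads in untreated and 57 and 49 in KCl cultures, against 394, 415 and 328 and then 428 and 480 downstream reads (log2 change -1.12, edgeR adjusted p = 0.0307). Csnk1e, a casein kinase of the circadian clock, had 22, 20 and 25 upstream reads against 74 and 84 (log2 change -1.20, edgeR adjusted p = 0.0378). The calls of Thra and Csnk1e were lost when any 1 culture was left out, with changes between -1.32 and -0.87. Of the 28 genes with a changed pair, 11 also had a transcript with a changed ratio, which is 39.3% of the former and 16.7% of the 66 genes with a changed ratio. Those 66 stand beside 6058 genes with a member. The share with a changed ratio among the 662 genes with a tested pair was not counted. Both measures use the same 3′UTR reads. The pairs, that of Thra among them, were not refitted without ends that share bases with other genes.

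Most immediate early genes with enough reads rose in each region. Of 17 members among 32 listed transcription factors of this kind, with 1 transcript per gene, 14 rose in the CDS and 16 in the 3′UTR, beside 556 and 755 of all 6058 genes. The read minimum summed untreated and KCl cultures, so a gene with few untreated reads, such as Nr4a2, became a member through its KCl reads. That favours rises among the members, here and in the list of other activity-induced genes. Of the 17, 0 changed in the ratio in either direction. By the same count 51 of 6058 genes did (0.842%). Before adjustment 3 of the 17 and 619 of all 6058 had a p under 0.05 (edgeR), and DESeq2 called 0 and 19. The log2 changes of the 17 ratios lay between -0.86 and 1.10 with a median of 0.009, beside 0.008 over all 6058. Fos had 28, 36 and 33 CDS reads in untreated and 88 and 118 in KCl cultures, with 36, 59 and 46 3′UTR reads against 167 and 150. Its log2 change was 1.69 in either region and 0.01 for the ratio (edgeR adjusted p = 0.995). Nr4a2, a nuclear receptor, had 6, 7 and 6 CDS reads against 226 and 223, and 10, 5 and 3 3′UTR reads against 253 and 220 (log2 change of the ratio 0.06, edgeR adjusted p = 0.983). Srf, the serum response factor, had ratios of 1.82, 1.15 and 1.46 against 2.70 and 2.18, without overlap but with an edgeR adjusted p of 0.277 (log2 change 0.67, standard error 0.25).

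Other activity-induced genes had no call for the ratio in 16 members of 30, with a median log2 change of 0.356, a lowest adjusted p of 0.249 (edgeR) and 1 member with an unadjusted p under 0.05, while 10 rose in the CDS and 13 in the 3′UTR. The counts over all 6058 genes, against which this and the following lists are to be read, were 556 rises and 390 falls in the CDS, 755 rises and 662 falls in the 3′UTR, and 619 ratios with an unadjusted p under 0.05. Of 12 members among 23 cleavage and polyadenylation factors, 3 rose and 1 fell in the CDS and 6 rose and 2 fell in the 3′UTR. The ratio was called in 0 of the 12 (3 at an unadjusted p under 0.05, edgeR), with a median log2 change of 0.304, and Cpsf6 was the gene of this list called in another transcript. Splicing factors and CLK kinases had 0 calls in 22 members of 39, of which 8 had an unadjusted p under 0.05, with a median of -0.01. Clk1, a kinase of splicing factors, had ratios of 0.037, 0.0845 and 0.0575 against 0.159 and 0.132 (log2 change 1.24, edgeR adjusted p = 0.269). Of 14 members among 26 genes with known long and short neuronal 3′UTRs, 0 were called and 2 had an unadjusted p under 0.05 (edgeR), with a median of -0.018. Mapt, from this list, had a log2 change of 0.03 (edgeR adjusted p = 0.984).

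Transcripts with destabilizing elements in the 3′UTR had 1 call in 17 members of 23, that of Hmox1, the heme oxygenase. It rose in both regions, with 183, 192 and 169 CDS reads against 258 and 394 and 64, 73 and 85 3′UTR reads against 240 and 309 (log2 change of the ratio 0.97, standard error 0.22, edgeR adjusted p = 0.00852). The median of this list was 0.391, and Hmox1 lost its call with DESeq2 and without any culture but untreated culture 3 (log2 changes 0.89 to 1.12). Ccl2, which is on it, fell in both regions, by 3.17 in the CDS and 2.89 in the 3′UTR, with a log2 change of the ratio of 0.28 (edgeR adjusted p = 0.859). Synaptic proteins had 1 call in 23 members of 28, that of Grin2b, and a median of -0.12. Actin and SRF targets (12 of 18 listed), heat shock and ER chaperones (8 of 20) and ion transport genes (13 of 22) had 0 calls, with median log2 changes of -0.144, 0.053 and -0.029 and 4, 2 and 0 members at an unadjusted p under 0.05 (edgeR). The ratio was not called for any member among markers of neurons (5), astrocytes (8), microglia (4), the oligodendrocyte lineage (6) and endothelial and mural cells (2), of which 1 astrocyte and 1 microglial gene had an unadjusted p under 0.05. DESeq2 called 0 members of any of these lists.

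Crem, Nfat5, Fth1, Ccni, Ociad2 and Tgfb1i1 had log2 changes of the ratio of -0.42, -0.35, -0.17, 0.17, -0.39 and -0.27, for the most read transcript of each gene, none with an adjusted p under 0.05 (edgeR, lowest 0.635). For Crem, a transcription factor of the cAMP response, this was the smallest change of its 14 members. The others reached -1.76 (edgeR adjusted p = 0.0509), all 14 were negative, and summed reads gave -0.68 (edgeR adjusted p = 0.211). These isoforms share reads. Nfat5, a transcription factor of the response to salt, rose in both regions, with 91, 68 and 65 CDS reads against 284 and 281 and 146, 94 and 102 3′UTR reads against 358 and 362. Homer1, a postsynaptic scaffold for which an upstream end is a known product of activity, was not a member because its listed transcripts had at most 4 3′UTR reads over 5 libraries. Its CDS reads were 34, 19 and 20 in untreated and 67 and 42 in KCl cultures. Tfrc and Camk2a also missed the read minimum, and Bdnf, Actb and Pcf11 had 0 listed transcripts.

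CDS footprints, counted in RF libraries that the ratio did not use, rose for 2008 and fell for 1840 of 9933 members (38.7%, edgeR; 2054 calls without KCl culture 5), and for 1353 and 2799 with library totals. RF libraries differed in depth, with 7719915, 6551613 and 1463654 reads in untreated and 1608235 and 3120710 in KCl cultures. The part of library depth in these calls was not tested. Among transcripts with a higher ratio 23 of 43 (53.5%) had more footprints and 5 (11.6%) fewer. Among those with a lower ratio 26 of 53 (49.1%) had more and 10 (18.9%) fewer, beside 20.2% and 18.5% of all members. Median log2 changes of footprints were 0.341 and 0.281, beside -0.011. The share with more footprints was about the same in both groups. Transcripts with a changed ratio had more reads, with a median of 901 and 651 CDS reads over 5 libraries beside 269 for all members, and the part of this depth in the number of footprint calls was not tested. Across members Spearman's rho of the ratio change with the footprint change was 0.059.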

How the data were processed

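The deposited files hold counts: whole numbers of reads on each region of each Ensembl transcript, in 1 RNAseq and 1 RF (ribosome footprint) library per culture, not normalized by the authors. Per the labels and the study's methods, reads were trimmed (Trimmomatic 0.32), cleared of rRNA (STAR 2.3.1z8), aligned to the mouse transcriptome (Bowtie2 2.2.2) with reads that fit several transcripts kept, and counted (bedtools 2.20.1). Regions carry letters. The CDS and 3′UTR letters were read from shares of reads against annotated lengths (Spearman's rho 0.655 and 0.646), and 1 region remains unnamed. Gene names, lengths and sequences came from GENCODE vM21 (GRCm38), which held 9833 of the 9934 members.

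The ratio was tested with edgeR 4.0.16 (R 4.3.3) as the interaction of region and KCl in a quasi-likelihood fit with culture as a block and TMM factors within each region. CDS, 3′UTR and footprint counts were fitted alone, and pairs of ends like the ratio. Benjamini-Hochberg adjustment ran over all features tested. Standard errors are the log2 change over the square root of F. On simulated counts for the ratio over 9934 transcripts, with 100 changed at each size, edgeR recovered 34% at a log2 change of 1 and 86% at 2, and 7.69% of its calls were false. DESeq2 1.42.0 recovered 13% and 67%, and limma 3.58.1 (pseudocount 0.5) 1% and 49%. Members with few reads therefore cannot be called unchanged.

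Named genes are, with the most read transcript of a gene, the 12 largest rises and 12 largest falls among calls whose 2 KCl values stood outside the untreated range, 18 fixed genes, and called genes of 15 lists. Members, lists and tests were chosen with earlier results of these data known. The pairs of ends and the fit with 1 transcript per set of counts were added after the data were seen. Alternatives were library totals, DESeq2, limma, other read minimums, no block, 1 transcript or summed reads per gene, no overlap with other genes, and each culture left out. Some genes that the rule names are not reported here.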

Additional observations from a re-analysis of the deposited data

How the results depend on the processing

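The ratio was called in 96 transcripts (edgeR). Counts that moved by more than 1.5 times were, among others, 28 with DESeq2 and 0 with limma. DESeq2 had 430 transcripts at an unadjusted p under 0.05 and no adjusted p for 3274, and limma had 886 at an unadjusted p under 0.05. Also beyond 1.5 times were 53 with 1 transcript per gene and 20 with reads summed over the transcripts of a gene, each of 6058 tested. These fits tested fewer features than the 9934 members, so their counts are not like for like with 96. So was the 47 found without the replicate block, which ties the CDS and 3′UTR counts of a culture, beyond 1.5 times. Without 1 culture the count lay between 28 and 150, lowest without KCl culture 4 and highest without untreated culture 3. Of the 28 calls of DESeq2 all 28 were among the 96. Library totals, read minimums of 1, 10 and 200, members without overlaps and 1 transcript per set of counts gave between 77 and 135. The number tested in these fits ran from 4504 with at least 200 reads to 17976 with at least 1.

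CDS calls (1570) came to 1002 with DESeq2, 1025 with at least 200 reads per region, and between 721 and 1835 without 1 culture. 3′UTR calls (2275) came to 1353 with at least 200 reads and between 1314 and 2216 without 1 culture. Footprint calls (3848) lay between 2054 and 4003 without 1 culture, and library totals shifted the median log2 change of footprints by -0.151. The lowest of these counts came without KCl culture 4 for the CDS and 3′UTR and without KCl culture 5 for footprints. Pairs of ends (43) came to 23 with DESeq2, 11 with at least 200 reads per end, 26 with 1 pair per gene, 42 without the replicate block and between 26 and 42 without 1 culture, lowest without untreated culture 3 or KCl culture 5. Some of these fits tested fewer features than the 9934 members or 1114 pairs. At least 200 reads left 4504 members or 391 pairs, and 1 pair per gene left 662. The shift of the median ratio was 0.07, and between 0.046 and 0.094 without 1 culture.

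The 23 genes named for the largest changes kept their direction under every alternative that gave a value, and 9 kept the call without each culture in turn. The 23 were chosen with both KCl values outside the untreated range, so their kept direction was largely fixed by that choice. Without 1 culture uncalled Fos, Ccni, Ociad2 and Mapt ranged from -0.24 to 0.27, -0.06 to 0.40, -0.96 to 0.45 and -0.21 to 0.29. Their signs turned without KCl culture 4 for Fos, Ccni and Mapt, without untreated culture 1 for Fos and Mapt (both -0.04), without untreated culture 3 for Fos (-0.03) and without KCl culture 5 for Ociad2. The cause of these differences was not tested. The replicate numbers also join RNAseq and RF libraries, but no result here compares the assays in a single fit.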

Other observations

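The region without a name in the counts took from 0.19% to 0.23% of footprints. For RNAseq its share was 5.82%, 6.13% and 6.16% in untreated and 5.83% and 5.97% in KCl cultures, so the groups overlapped. It entered no comparison.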
